A study of Mus musculus with 11 samples.

Results

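The genes described here encode the neuron-specific cytoskeleton: the neurofilament subunits Nefl, Nefm and Nefh, the other neuronal intermediate filaments Prph and Ina, the tubulin Tubb3, the microtubule-associated protein Map2, the stathmins Stmn2 and Stmn3, and the growth cone protein Gap43. Their probe sets were taken by gene symbol, as every probe set that the platform annotation assigns to 1 of these genes alone. That gave 18 probe sets for 10 of 10 genes, among 12393 genes with such a probe set. The study measured total RNA of sympathetic ganglia, dissected by laser capture, on 11 Affymetrix arrays. The mice of 6 arrays were apoE-/- (called Apoe-deficient below) and the mice of the other 5 were wild-type. The strain label was C57BL, the sex male, the age 78 weeks and the diet normal chow in both groups, and the apoE-/- allele was the labelled difference. The labels do not say whether an array holds 1 ganglion, 1 animal or a pool, so the p-values measure the spread between arrays, which may be partly technical.

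Neurofilaments are the intermediate filaments of mature axons. The light chain Nefl forms the core of the filament, and the medium and heavy chains Nefm and Nefh carry long, heavily phosphorylated tails that project from it and bear on axon calibre. Prph and Ina join the same filaments, and Prph is abundant in peripheral neurons, sympathetic ones included. Tubulin and Map2 build and stabilise microtubules, stathmins bind tubulin and promote microtubule turnover, and Gap43 lies at the membrane of growing axon tips, so that Stmn2 and Gap43 are widely used as marks of axon growth and regeneration.

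The deposited values were linear signals, scaled by the authors to a common trimmed mean, with array medians of 163 to 188.6. Differences are Apoe-deficient minus wild-type on the log2(signal + 16) scale after quantile normalisation, a scale that understates the change of low genes. The p-values come from limma over 8433 genes, adjusted by the Benjamini-Hochberg method with a threshold of 0.05, and exact two-sided permutation tests over the 462 splits of the 11 arrays stand beside them. With 462 splits the smallest exact permutation p was 0.0022. After adjustment over all genes 0 of the 8433 passed by the exact test, Apoe included (0.140), so adjusted exact values cannot tell genes apart at that threshold. Apoe had signals of 7.2 to 268.2 in Apoe-deficient arrays and 11830.3 to 19649.2 in wild-type arrays, as the labels say. The arrays fell into 3 levels of their hybridisation controls: Apoe-deficient arrays 2, 3 and 4 made up the low level, Apoe-deficient array 5 with wild-type arrays 3, 4 and 5 the middle one, and Apoe-deficient arrays 1 and 6 with wild-type arrays 1 and 2 the high one. The low level held no wild-type array, so for those arrays level and genotype cannot be told apart. Markers of the labelled tissue were present: the summed signal of 13 noradrenergic neuron markers was 77311 to 90605 in Apoe-deficient arrays and 79216 to 89519 in wild-type arrays.

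None of the 10 genes passed the threshold in either direction, against 163 of the 8433 genes tested (1.93%), with 106 of them higher (1.26%) and 57 lower (0.676%) in the Apoe-deficient group. The heavy neurofilament Nefh came closest, with a log2 difference of -0.46 (95% interval -0.70 to -0.21, adjusted p = 0.0534), followed by Ina (-0.45, adjusted p = 0.137) and Tubb3 (-0.28, adjusted p = 0.218). These 3 genes, 30% of the group, had an unadjusted limma p under 0.05, as did 20.3% of all genes tested. Nefh and Ina had an exact permutation p at or under 0.05, as did 18.2% of all genes. In no gene of the group were the normalised values of the 2 genotypes separate, whereas 2.96% of all genes had no overlap (1.51% lower and 1.46% higher in Apoe-deficient arrays). The median difference of the 10 genes was -0.0015, with 5 positive and 5 negative values, and that of all genes tested was -0.04.

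**Figure D1:**
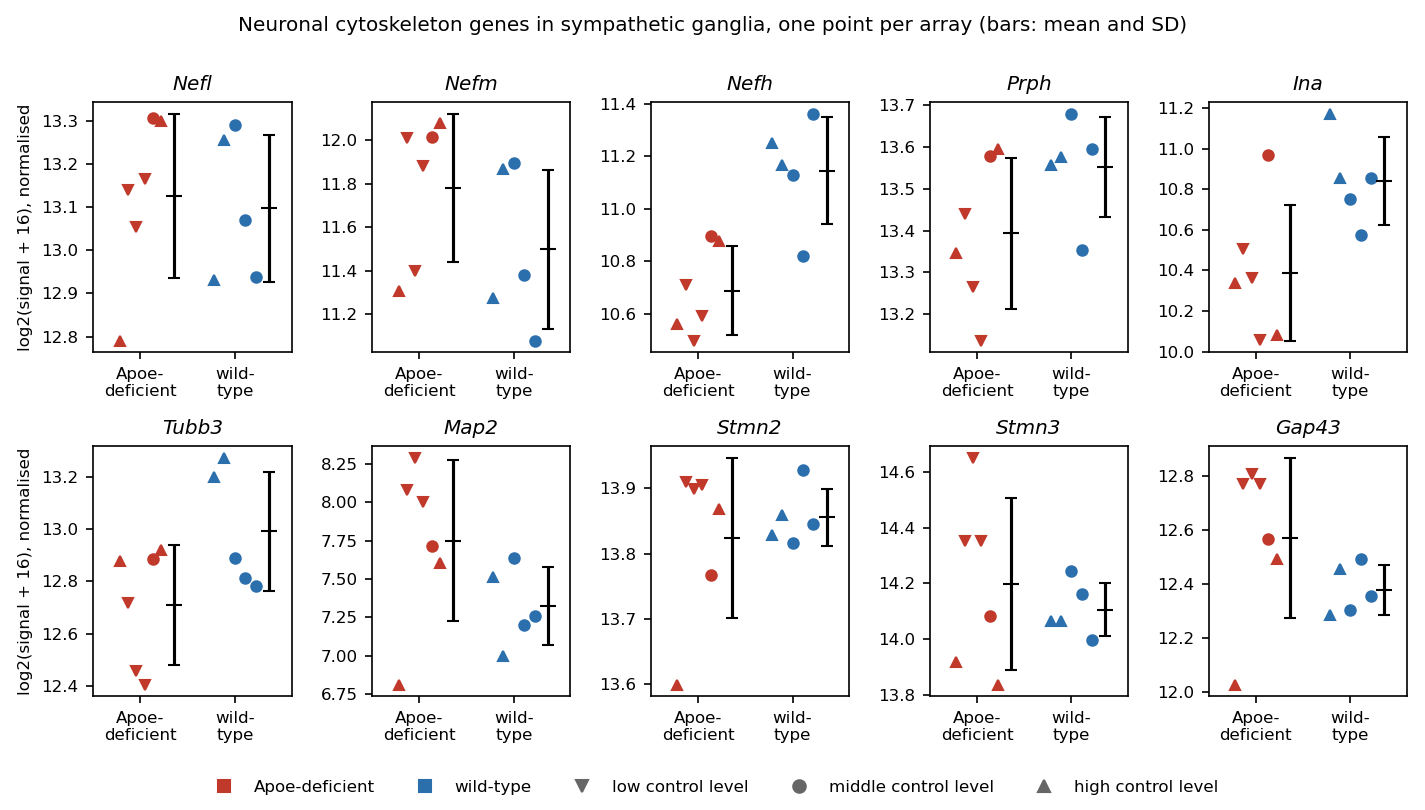
Normalised log2(signal + 16) of the 10 genes, 1 point per array and 1 panel per gene, with Apoe-deficient arrays left and wild-type arrays right; marker shape gives the hybridisation control level, and bars give the mean and SD of 6 and 5 arrays. Nefh shows 4 of 6 Apoe-deficient points below every wild-type point, and Map2, Stmn3 and Gap43 have their 3 highest points in the low-level arrays. For Stmn3 those 3 arrays had the lowest deposited signals, so this order arose with the normalisation.

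The differences of the 3 neurofilament subunits were near 0 for Nefl, positive for Nefm and negative for Nefh, and none passed the adjusted threshold. Nefl had deposited signals of 8258.5, 7501.9, 7485.2, 8244.2, 10015.2 and 11456.9 in Apoe-deficient arrays 1 to 6, against 8239.1, 10866.4, 9706.6, 9032.7 and 7786 in wild-type arrays 1 to 5. The 2 ranges overlapped almost fully. The mean signal of Nefl was 8827 ± 1584 in Apoe-deficient ganglia (SD, n = 6) and 9126 ± 1220 in wild-type ganglia (SD, n = 5), and the normalised log2 difference was 0.03 (95% interval -0.19 to 0.25, limma adjusted p = 0.896).

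Nefm, the medium chain, had signals of 2519.8, 3956.5, 2774.6, 3790.8, 4101.8 and 4179 in Apoe-deficient arrays 1 to 6, against 2421.1, 3780.8, 3701.2, 2754.9 and 2113.4 in wild-type arrays 1 to 5. Both groups held high and low arrays: 4 of the 6 Apoe-deficient signals lay above the highest wild-type signal, and the other 2 lay among the lower wild-type ones. The mean was 3554 ± 719 in Apoe-deficient ganglia and 2954 ± 754 in wild-type ganglia (SD, n = 6 and 5). The log2 difference of 0.28 (95% interval -0.10 to 0.67) did not pass limma's test (adjusted p = 0.383), and without wild-type array 5 it was 0.18.

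Nefh, the heavy chain, had signals of 1485.3, 1710, 1488.7, 1567.4, 1882.6 and 1786.1 in Apoe-deficient arrays 1 to 6, against 2382.3, 2248, 2195.6, 1829.2 and 2614.7 in wild-type arrays 1 to 5. The groups overlapped only through Apoe-deficient array 5, which was above wild-type array 4; the other 5 Apoe-deficient signals were below every wild-type one, and after normalisation Apoe-deficient array 6 was above it too. The mean was 1653 ± 165 in Apoe-deficient ganglia and 2254 ± 287 in wild-type ganglia (SD, n = 6 and 5), a ratio of 0.734. Nefh had an exact permutation p of 0.00866, which became 0.172 after adjustment over all genes, a step at which 0 of the 8433 genes passed. The limma adjusted p was 0.0534. The difference was negative under all 29 alternative settings (-0.54 to -0.37). It passed the threshold in 6 of them, among these the fits without Apoe-deficient array 5 (adjusted p = 0.0394), without Apoe-deficient array 6 (adjusted p = 0.0411) and without wild-type array 4 (adjusted p = 0.0238). With a block for the level of the hybridisation controls it was -0.37 (adjusted p = 0.332), and within the high level alone, with 2 arrays against 2, it was -0.49 (adjusted p = 0.459).

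Read against the other subunits of the same array, Nefh stood lower in Apoe-deficient ganglia. The log2 of the deposited Nefh signal over the deposited Nefm signal was -0.76, -1.21, -0.90, -1.27, -1.12 and -1.23 in Apoe-deficient arrays 1 to 6, against -0.02, -0.75, -0.75, -0.59 and 0.31 in wild-type arrays 1 to 5. A log ratio of different probe sets has no meaning as a level, since each probe set has its own affinity, but its change from array to array can be read. The ratios of the 2 genotypes met without crossing on deposited signals, with a mean of -1.08 ± 0.21 in Apoe-deficient arrays and -0.36 ± 0.48 in wild-type arrays (SD, n = 6 and 5), and overlapped slightly on normalised values, where the difference was -0.74. Nefh over Nefl averaged -2.40 ± 0.18 in Apoe-deficient arrays and -2.02 ± 0.32 in wild-type arrays, with overlap, and Nefm over Nefl averaged -1.32 ± 0.28 in Apoe-deficient arrays and -1.66 ± 0.20 in wild-type arrays, also with overlap. These ratios were formed after the values of the genes had been seen and were given no test.

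Prph, the peripheral intermediate filament peripherin, had signals of 12909.8, 8764.4, 8324.8, 8116.2, 11998.4 and 14817.4 in Apoe-deficient arrays 1 to 6, against 13788.1, 14591.6, 12849.7, 10718.5 and 12421.8 in wild-type arrays 1 to 5. Its lowest 3 signals were those of the 3 low-level arrays, and the remaining Apoe-deficient arrays lay within or above the wild-type range. The normalised log2 difference was -0.16 (95% interval -0.35 to 0.03, limma adjusted p = 0.327), and it was -0.046 without the 3 low-level arrays. The other 3 probe sets of Prph also had negative differences (-0.37, -0.28 and -0.13), and none of the 4 passed a test.

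Ina encodes alpha-internexin, a neuronal filament protein that is made early in development and co-assembles with the neurofilament subunits. Its brightest probe set had signals of 1263.8, 1503.5, 1350.7, 1075, 1974.7 and 1038 in Apoe-deficient arrays 1 to 6, against 2236.5, 1792.1, 1697.4, 1516.6 and 1793.9 in wild-type arrays 1 to 5. Apoe-deficient array 5 was the only array of its group above the lowest wild-type signal. The mean signal of Ina was 1368 ± 344 in Apoe-deficient ganglia and 1807 ± 265 in wild-type ganglia (SD, n = 6 and 5), with a log2 difference of -0.45 (95% interval -0.79 to -0.12, limma adjusted p = 0.137, exact permutation p = 0.0346 and 0.244 after adjustment). The other 2 probe sets of Ina had differences of -0.33 (exact permutation p = 0.0455) and -0.47 (exact permutation p = 0.0238), so all 3 lay on the same side. Without Apoe-deficient array 5, Ina passed the threshold (log2 difference -0.57, limma adjusted p = 0.0350), the only 1 of 29 alternative settings in which it did. The difference was negative under all 29 (-0.80 to -0.33). It was -0.36 with a block for the control level (limma adjusted p = 0.536) and -0.38 without the low-level arrays (limma adjusted p = 0.543). When every probe set past the filter was tested on its own, none of the 17 tested here passed, against 183 of 12757 (1.43%).

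Tubb3, the neuronal beta-tubulin, had signals of 8875, 5957.9, 5373.8, 5287.3, 7536.5 and 8287.5 in Apoe-deficient arrays 1 to 6, against 10104.9, 10994.2, 7338.2, 7482.4 and 7011.6 in wild-type arrays 1 to 5. As with Prph, the low-level arrays gave the 3 lowest signals, and the other Apoe-deficient arrays overlapped with wild-type ones. Its log2 difference was -0.28 (95% interval -0.54 to -0.02, limma adjusted p = 0.218, exact permutation p = 0.0974), and it was -0.10 without the low-level arrays.

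The proximal promoters of the 3 genes with the highest r with Nefh over all 11 arrays (Prph, Ina and Tubb3) are given here to show which basal promoter motifs each holds. They are RefSeq sequences of the assembly GRCm38.p6, 250 bases before the gene's start, 5′ to 3′, and 5 of the 10 genes had an entry in the table used. Capitals mark matches, on either strand, to the TATA box TATAAA, the CCAAT box CCAAT and the GC box GGGCGG.
Prph (chr15:99054924-99055173, plus strand): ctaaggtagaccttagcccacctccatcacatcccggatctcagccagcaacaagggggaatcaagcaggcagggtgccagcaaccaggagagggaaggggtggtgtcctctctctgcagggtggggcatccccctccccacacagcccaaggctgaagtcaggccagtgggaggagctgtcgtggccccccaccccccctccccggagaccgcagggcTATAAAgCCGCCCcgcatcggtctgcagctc
Ina (chr19:47014431-47014680, plus strand): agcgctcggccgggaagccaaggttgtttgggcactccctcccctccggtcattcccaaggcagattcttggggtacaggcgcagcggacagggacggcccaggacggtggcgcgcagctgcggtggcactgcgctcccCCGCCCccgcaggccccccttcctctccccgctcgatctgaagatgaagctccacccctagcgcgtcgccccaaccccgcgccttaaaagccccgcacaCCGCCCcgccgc
Tubb3 (chr8:123411303-123411552, plus strand): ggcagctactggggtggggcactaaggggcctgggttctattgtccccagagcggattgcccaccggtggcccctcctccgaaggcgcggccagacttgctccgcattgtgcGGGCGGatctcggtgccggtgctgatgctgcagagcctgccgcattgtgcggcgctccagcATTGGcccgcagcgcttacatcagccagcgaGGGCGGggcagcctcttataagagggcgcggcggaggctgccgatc
Prph had 1 TATA box and, on the other strand, 1 GC box; Ina had 2 GC boxes on the other strand; Tubb3 had 1 CCAAT box on the other strand and 2 GC boxes. Of the 32851 promoters in the table, 12.4% held the TATA box, 33.8% the CCAAT box and 32.7% the GC box in the same window. The matches describe letters and were not linked to the array values.

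Map2, the dendritic microtubule-associated protein, had low signals on this array. Its brighter probe set gave 89.5, 255.6, 286.9, 235.4, 201 and 191.9 in Apoe-deficient arrays 1 to 6, against 170.4, 117.1, 187.8, 118.8 and 145.5 in wild-type arrays 1 to 5. All Apoe-deficient signals but that of array 1 were above the highest wild-type signal, and array 1 was the lowest of all. The mean was 210 ± 68.7 in Apoe-deficient ganglia and 148 ± 31.2 in wild-type ganglia (SD, n = 6 and 5). The log2 difference of 0.43 (95% interval -0.06 to 0.92) did not pass limma's test (adjusted p = 0.310). It was 0.054 without the 3 low-level arrays and 0.12 with a block for the control level. With the 3′ over 5′ ratio of the array controls as a covariate it was 0.27. The other Map2 probe set did not exceed the filter level in any array, with signals of 2.9 to 83.9 in Apoe-deficient arrays and 5.2 to 11.5 in wild-type arrays.

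The stathmins Stmn2 and Stmn3 were close between the genotypes on normalised values. Stmn2 had signals from 10386 over a median of 12899.2 to 19324.3 in Apoe-deficient arrays, against 17482.5, 18684, 14248.8, 15496.7 and 15219.6 in wild-type arrays 1 to 5. Its log2 difference was -0.03 (95% interval -0.17 to 0.11, limma adjusted p = 0.814), and its second probe set had 0.04. Stmn3 had signals from 12110.2 over a median of 15943.4 to 20695.4 in Apoe-deficient arrays, against 20651.4, 23740.8, 17294.8, 17559 and 16605.8 in wild-type arrays 1 to 5. Its log2 difference was 0.09 (95% interval -0.17 to 0.35, limma adjusted p = 0.693), or 0.0018 without Apoe-deficient array 3, and its second probe set had -0.04. For both genes the deposited scaling without quantile normalisation gave a negative difference (-0.27 for Stmn2 and -0.24 for Stmn3), so the sign of Stmn3 depended on that step. On the normalised scale the SD was 0.31 in Apoe-deficient arrays and 0.10 in wild-type arrays for Stmn3. Apoe-deficient arrays 2, 3 and 4 had the 3 lowest deposited Stmn3 signals of all arrays (12110.2, 14258.2 and 14486.8). After normalisation they had its 3 highest values (14.35, 14.65 and 14.35).

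Gap43, the growth cone protein, had signals of 4336.7, 6110.7, 6499, 6428.9, 5893.7 and 5883.7 in Apoe-deficient arrays 1 to 6, against 5074.2, 5770.7, 4895.7, 5993.9 and 5133.7 in wild-type arrays 1 to 5. The 3 low-level arrays were the highest of all, and Apoe-deficient array 1 was the lowest. The log2 difference was 0.19 (95% interval -0.07 to 0.46, limma adjusted p = 0.387). It was -0.02 without the 3 low-level arrays and 0.30 without Apoe-deficient array 1 (limma adjusted p = 0.0619). With the 3′ over 5′ ratio as a covariate it was 0.09.

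**Figure D2:**
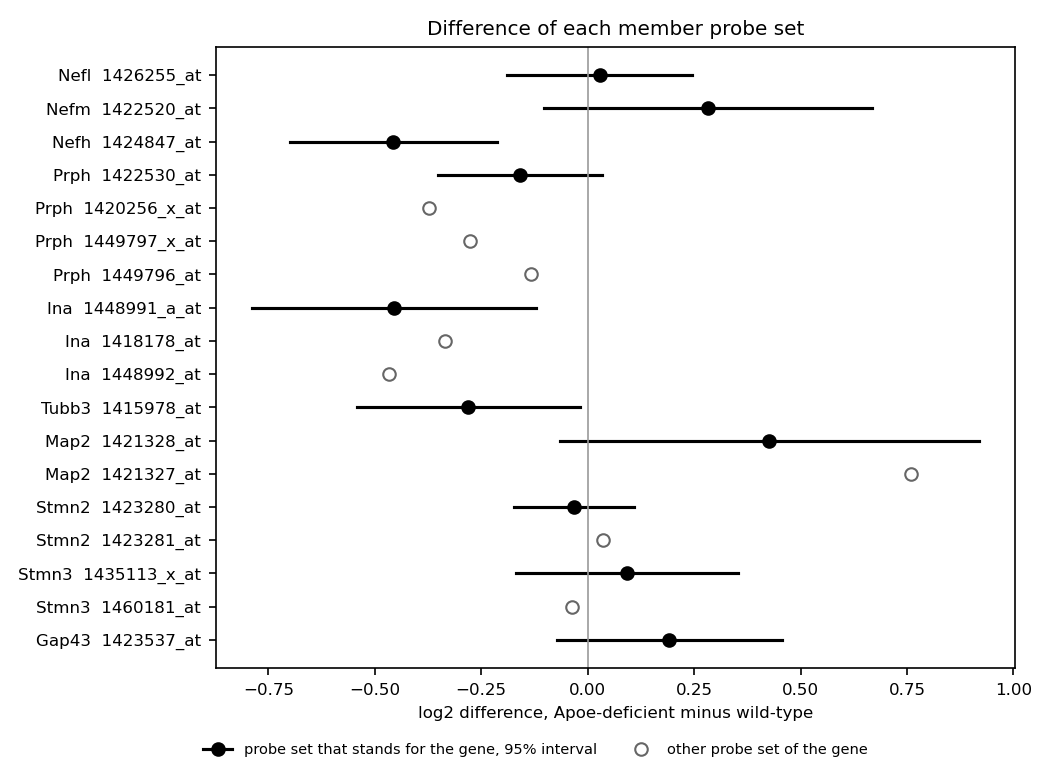
Log2 difference, Apoe-deficient minus wild-type, of each of the 18 probe sets, from top to bottom in the order of the text; filled points are the probe sets that stand for a gene, with the 95% interval of the limma fit, and open points are the other probe sets of that gene. All 4 probe sets of Prph and all 3 of Ina lie left of 0, and no difference passed the adjusted threshold. The lower 2 points of Prph come from probe sets of weak signal (means of 133 to 166).

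Across the 11 arrays, 45 pairs of these genes were compared, with values from -0.66 to 0.87 for Pearson's r. Nefl and Nefm, neighbouring protein-coding genes on chromosome 14, followed each other most closely (r = 0.87, permutation p = 0.00072, adjusted over the 45 pairs 0.0324; Spearman's rho = 0.88, permutation p = 0.00069). Leaving out the 2 arrays farthest from the median of Nefl gave r = 0.90, removing the genotype means gave 0.92, and removing the means of the 3 hybridisation control levels gave 0.92. Over all arrays the r of Nefh was 0.09 with Nefl and -0.18 with Nefm. With genotype means removed these were 0.26 and 0.27, and within the 6 Apoe-deficient arrays alone 0.77 and 0.82. The r within the 5 wild-type arrays was not computed. Among them, array 5 had the highest Nefh signal (2614.7) and the lowest Nefm signal (2113.4), so 0.77 and 0.82 are not read as holding in both genotypes. Nefh had its highest r over all arrays with Prph (r = 0.80, permutation p = 0.00351, adjusted 0.0526; rho = 0.76, permutation p = 0.00933) and with Ina (r = 0.75, permutation p = 0.00987, adjusted 0.074; rho = 0.77, permutation p = 0.00699), though neither passed the adjusted threshold. With the control level means removed these were 0.64 for Prph and 0.63 for Ina, and with genotype means removed 0.79 for Prph and 0.49 for Ina.

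Map2 and Gap43 gave the other pair past the adjusted threshold (r = 0.83, permutation p = 0.00186, adjusted 0.0418; rho = 0.76, permutation p = 0.00834, adjusted 0.101). This relation did not hold its size across levels: r was 0.65 without the 2 arrays farthest from the median of Map2 and 0.46 with the control level means removed. The same was seen for Stmn3 with Gap43, where r was 0.72 over all arrays and -0.0022 with the level means removed, and for Tubb3 with Stmn3, where it was -0.66 over all arrays and 0.33 with the level means removed. Stmn2 with Gap43 kept an r of 0.71 after that step, from 0.76 before it (permutation p = 0.00492, adjusted 0.0553, and rho = 0.68, permutation p = 0.0247). The r of Stmn3 and Stmn2 rest on normalised values. In these the low-level arrays moved from the lowest to the highest of Stmn3. For Stmn2, Apoe-deficient arrays 2, 3 and 4 had the lowest deposited signals of all arrays (10386, 10904.3 and 11806). After normalisation only wild-type array 4 (13.93) was above them (13.91, 13.90 and 13.90). The r on deposited signals was not computed.

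**Figure D3:**
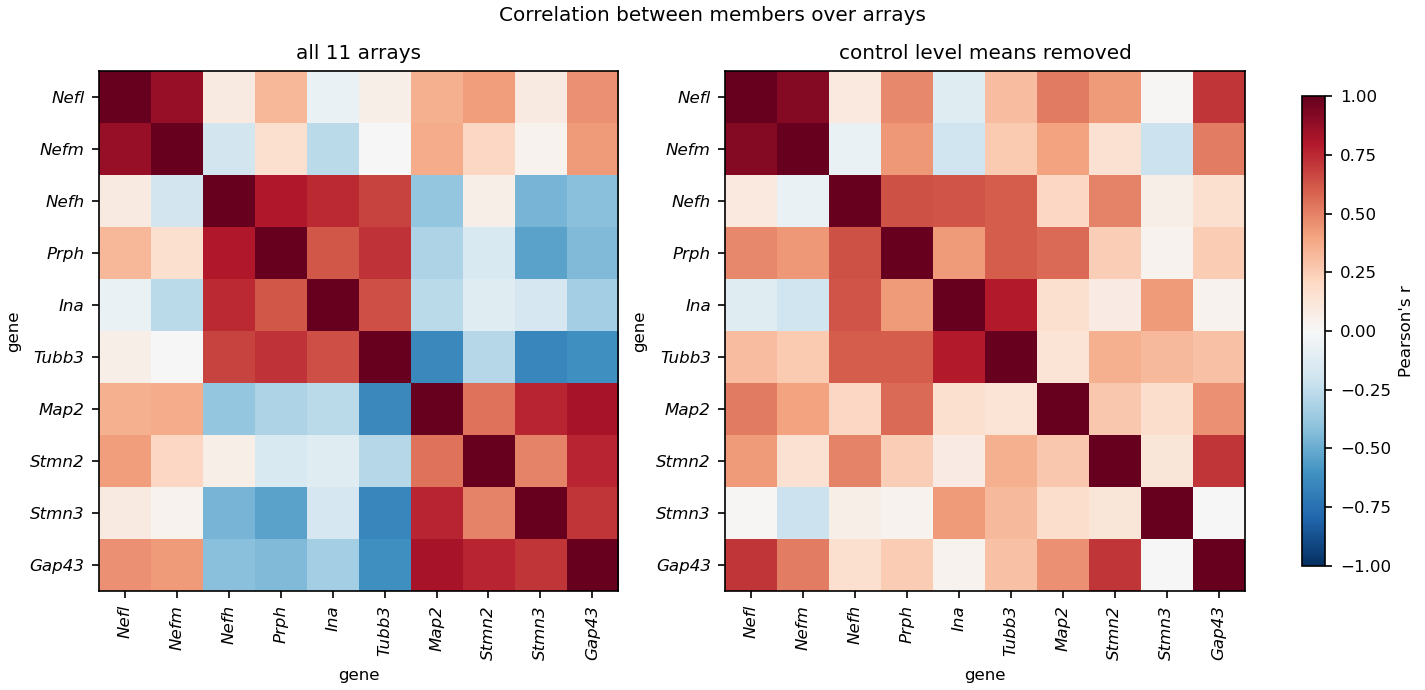
Pearson's r between the 10 genes over the 11 arrays, on normalised values (left) and after the mean of each hybridisation control level was removed (right); red is positive and blue negative. Nefl with Nefm stays near 0.9 in both panels, and the blue block of Tubb3 with Map2, Stmn3 and Gap43 is gone in the right one.

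**Figure D4:**
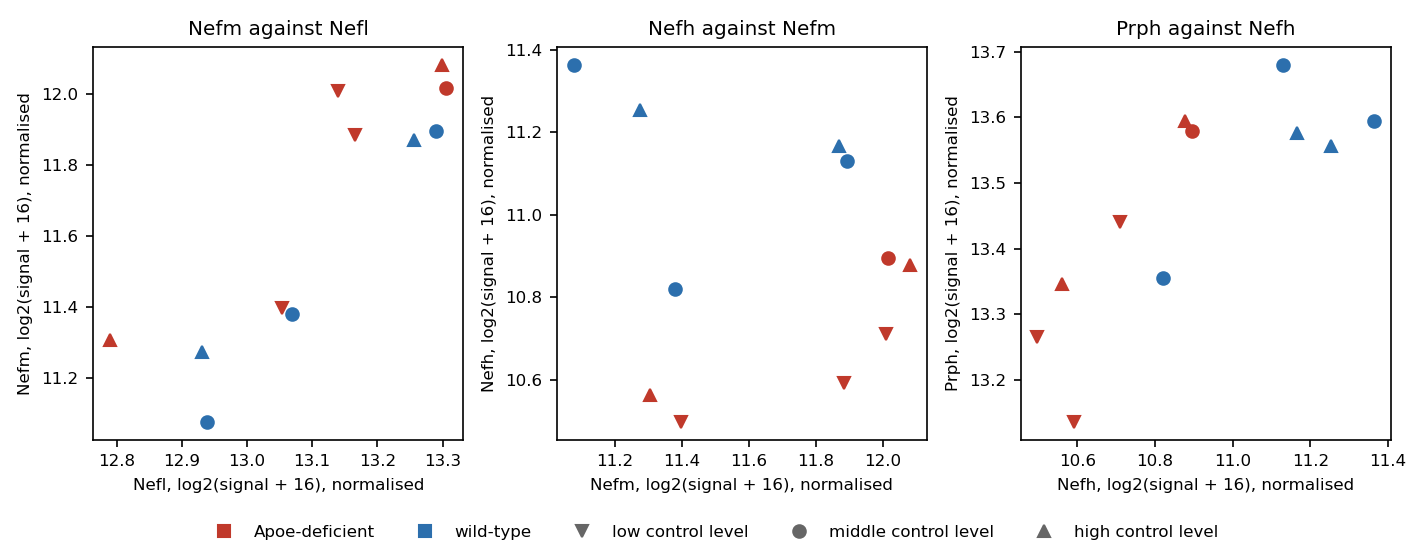
Normalised log2(signal + 16) of 1 gene against another, 1 point per array: Nefm against Nefl (left), Nefh against Nefm (middle) and Prph against Nefh (right), with colour for genotype and shape for hybridisation control level. Nefm rises with Nefl in both genotypes, and in the middle panel the Apoe-deficient points lie below the wild-type points of like Nefm signal.

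The genes whose normalised values were most alike to the mean of Nefl, Nefm and Nefh over the 11 arrays were Reep1 (r = 0.93, rho = 0.90), Tmem189 (r = 0.91, rho = 0.84), Arfip2 (r = 0.90, rho = 0.88), Map7d1 (r = 0.90, rho = 0.94) and Dnlz (r = 0.89, rho = 0.87). They were picked as the highest of all genes tested, so these r are descriptions with no p. Nefl itself had 0.90 with that mean, Nefm 0.80 and Nefh 0.43, values raised because each of these genes is part of the mean. Prph, which is not part of it, had 0.62. None of the 5 differed between genotypes by the limma test, with log2 differences of -0.15 to 0.01.

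The wider neuronal cytoskeleton was read in 6 lists of other genes, of which 108 of 122 had a single-gene probe set and 103 were tested. Of the 103, 0 were higher and 1, Ncam1, was lower in Apoe-deficient ganglia by the limma test. Of all genes tested, 1.26% were higher and 0.676% lower. The median difference of the 103 was -0.12, against -0.04 for all genes. Negative differences made up 74 of 103 (71.8%), against 57% of all genes tested. An unadjusted p under 0.05 was found for 29 of the 103 (28.2%), against 20.3% of all genes, and an exact permutation p at or under 0.05 for 26, against 18.2%. Ncam1, the neural cell adhesion molecule, had signals of 3724, 3333.3, 3065.5, 3352.1, 3785 and 3010.6 in Apoe-deficient arrays 1 to 6, against 5888.2, 5044.9, 4507, 3940.5 and 4356 in wild-type arrays 1 to 5. The deposited signals did not overlap, and the normalised ones did. Ncam1 fell by 0.45 on the log2 scale (95% interval -0.68 to -0.22, limma adjusted p = 0.0458, exact permutation p = 0.00649 and 0.162 after adjustment), and it passed in 9 of 29 alternative settings, with differences of -0.66 to -0.05. The value of -0.05 came from the mean of its probe sets, 2 of which past the filter had -0.14 and -0.03. Leaving out Apoe-deficient array 2, 3, 4 or 6 or wild-type array 1, 2, 3 or 5 put its adjusted p above the threshold (0.0587 to 0.126).

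The list of other intermediate filaments and their partners also holds filament genes of glia, muscle, epithelia and the nuclear lamina. Its 12 tested genes had a median difference of -0.22, with 10 negative and 2 positive values. The lowest p in that list belonged to Dst, the cytolinker dystonin that ties neurofilaments to other filaments, and to Cdk5r1, the activator of a kinase of neurofilament tails. Dst had a log2 difference of -0.32 (limma adjusted p = 0.0683, exact permutation p = 0.00649), and its normalised values did not overlap between genotypes, as in 1.51% of all genes. The other probe set of Dst past the filter had -0.19, and the mean of its probe sets gave -0.16 (limma adjusted p = 0.454). Cdk5r1 had -0.30 (limma adjusted p = 0.151), and its other probe sets past the filter had -0.17 and -0.05.

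The 15 genes of the tubulin list, which also holds tubulin folding cofactors, had a median of -0.09 with 11 negative values. The 2 of lowest p were Tubb5 (-0.22, limma adjusted p = 0.109, with -0.04 for its other probe set) and Tubb4a (-0.39, adjusted p = 0.178). The 22 microtubule-associated proteins and stathmins had a median of -0.14 with 16 negative values. They were led by the tubulin tyrosine ligase Ttl (-0.55, limma adjusted p = 0.0651) and the neuronal stathmin Stmn4 (-0.56, adjusted p = 0.119). The other probe sets of Ttl past the filter had -0.46 and -0.12. The 19 axonal transport motors had a median of -0.13 with 13 negative values, and the 2 of lowest p were the dynein heavy chain Dync1h1 (-0.50, limma adjusted p = 0.103) and the dynactin subunit Dctn1 (-0.42, adjusted p = 0.141). An unadjusted limma p under 0.05 was found for 33.3% of the filament and partner list, 13.3% of the tubulin list and 18.2% of the microtubule-associated proteins and stathmins. The share was 42.1% of the motors, 21.1% of the actin, spectrin and ankyrin genes and 50% of the growth cone list, against 20.3% of all genes. No list but that of the growth cone held a gene past the adjusted threshold.

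The 19 genes of the actin, spectrin and ankyrin skeleton had a median of -0.11 with 14 negative values. Profilin Pfn1, which binds actin monomers, had 0.57 (limma adjusted p = 0.0546), and the actin-binding Ablim1 had -0.43 (adjusted p = 0.0653). The 18 genes of the growth cone list, which also holds transcription factors, had a median of -0.22 with 12 negative values. Beside Ncam1 the collapsin response mediator Dpysl5 had the lowest p (-0.58, limma adjusted p = 0.0534). Each list held more negative than positive values, and so did the general neuron markers (10 of 13, or 76.9%). Of the 13 noradrenergic neuron markers 7 were negative (53.8%, median -0.02), against 57% of all genes tested.

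**Figure D5:**
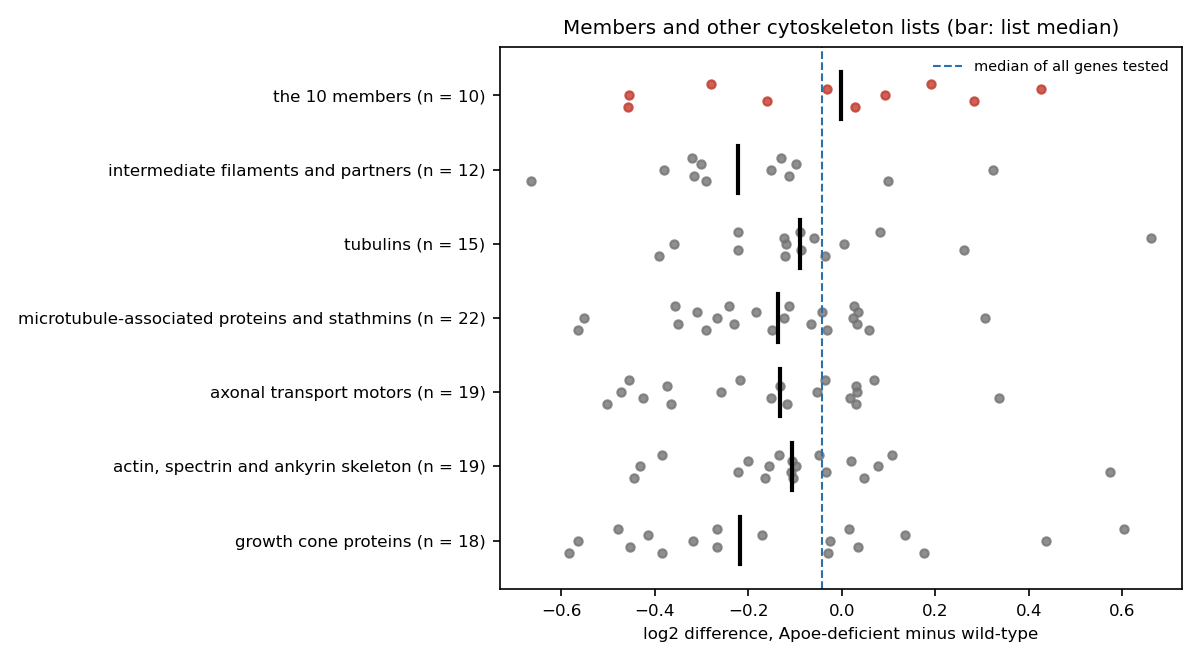
Log2 difference, Apoe-deficient minus wild-type, 1 point per gene, for the 10 genes (red) and the 6 other cytoskeleton lists (grey); black bars are list medians and the dashed line is the median of all 8433 genes tested. The 6 list medians lie between -0.22 and -0.09, left of the dashed line at -0.04, and that of the 10 genes lies at -0.0015.

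In whole ganglia, fewer neurons and less RNA per neuron cannot be told apart, so the share of other cells is given beside these values. The summed signal of the 13 general neuron markers was 48956 to 60425 in Apoe-deficient arrays and 54363 to 61395 in wild-type arrays, with a median log2 difference of -0.08 and no gene past the threshold. With the mean of those markers as a covariate, Nefh had a log2 difference of -0.39 (limma adjusted p = 0.132), Ncam1 had -0.38 and no longer passed (adjusted p = 0.113), and Pfn1 was the 1 list gene past the threshold. Of the 3 tested sensory neuron markers, Avil, an actin-regulating protein of sensory neurons, was lower in Apoe-deficient ganglia (-0.62, limma adjusted p = 0.0219), and its normalised values did not overlap. The summed signal of the 3 was 5609 to 6385 in Apoe-deficient arrays and 6988 to 8635 in wild-type arrays. The other 2, Isl1 (-0.05, limma adjusted p = 0.865) and Runx1 (-0.40, adjusted p = 0.245), did not pass. Of the 7 sensory markers with a single-gene probe set, Tac1, Scn10a, Scn11a and P2rx3 did not pass the filter. The sum of the 3 therefore does not give a share of sensory neurons. Of the 10 tested macrophage markers 7 were higher in Apoe-deficient ganglia, with a median of 0.86 and summed signals of 9302 to 13444 in Apoe-deficient arrays and 5201 to 6822 in wild-type arrays. Of the 3 tested plasma and B cell markers, Jchain (4.33, limma adjusted p = 0.00581) and Ighm (3.76, adjusted p = 0.0116) were higher, with summed signals of 14905 to 38190 in Apoe-deficient arrays and 587 to 16730 in wild-type arrays. All 7 tested fibroblast markers had positive differences (median 0.56), of which Postn passed (1.10, limma adjusted p = 0.00594), with summed signals of 11770 to 19677 in Apoe-deficient arrays and 8758 to 12756 in wild-type arrays. White and brown adipocyte markers had medians of -0.74 and -0.78, and 0 of their 10 tested genes passed. Satellite glia, myelinating Schwann cell and endothelial markers had medians of -0.13, -0.06 and 0.05, with no gene past the threshold. The 3′ over 5′ ratio of the array controls averaged 0.66 in Apoe-deficient arrays and 0.84 in wild-type arrays on the log2 scale (exact permutation p = 0.424). It ran from 0.34 to 1.42 in Apoe-deficient arrays and from 0.63 to 1.20 in wild-type arrays. The highest ratio was that of Apoe-deficient array 1, which had the lowest Map2 and Gap43 signals. The lowest were those of Apoe-deficient arrays 2 and 3, which had the highest Map2 signals. The part of these shifts in the cytoskeleton values was not tested.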

How the data were processed

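Total RNA of laser-captured sympathetic ganglia was measured on 11 Affymetrix arrays, 6 Apoe-deficient and 5 wild-type, grouped by the genotype in the labels. The authors deposited 1 linear signal (an intensity) per probe set, made with GCOS 1.4 per the submitters' processing notes and scaled to a 2% trimmed mean near 500.2 on each array. Signal algorithm and genome build: not given in the sources used here. The 64 control probe sets were left out before log2(signal + 16) was taken and the arrays quantile normalised. A probe set had to exceed the 40th percentile of all values in 5 or more arrays, the single-gene probe set of highest mean stood for its gene, and 8433 genes were fitted with limma 3.58.1 in R 4.3.3 (intensity trend, two-sided, Benjamini-Hochberg). Single genes were also given exact permutation tests, and correlations between genes permutation tests with 1e+05 resamples. In simulated data for the comparison of 6 with 5 arrays over 8433 genes, the fit recovered 34% of genes changed by 0.5 on the log2 scale and 90% of those changed by 1.

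The members and gene lists were chosen with earlier results of these data known. Named genes were the members, every list gene past the threshold, the 2 of smallest p in each list, the 5 most alike to the neurofilament mean, Apoe as the check of the labels, and markers; Avil, the only sensory marker past the threshold, was named after its values were seen, as were Jchain, Ighm, Postn and the further list genes in the closing observations. Alternatives changed the scaling, pseudocount, filter, probe set rule, variance model, weights, control level, covariates and arrays used. Gene names came from the platform annotation, and promoters and the order of genes from RefSeq (GRCm38.p6). Precision is limited by the number of arrays. Figures were drawn with matplotlib 3.10.9.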

Additional observations from a re-analysis of the deposited data

How the results depend on the processing

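Of 289 values of the 10 genes under 29 alternative settings, 261 kept their direction and side of the threshold, 7 came to pass it and 21 turned their sign; the cause was not tested. The count of these genes past the threshold, 0 in the reported analysis, was 1 with median centring, 1 with array weights and 1 with the replicate block, which also drops Apoe-deficient array 6 (Nefh each time), and 0 to 2 when single arrays were left out: 2 without Apoe-deficient array 5 (Nefh and Ina) and 1 without Apoe-deficient array 6 or wild-type array 4 (Nefh). For all genes, 163 became 668 with array weights, 45 with a block for the level of the hybridisation controls, 36 without the low-level arrays, 93 with the poly-A control signal as a covariate and 4 within the highest level, the last 2 settings chosen after seeing the data. It ran from 74 to 262 when single arrays were left out: 261, 108, 81 and 102 without Apoe-deficient arrays 1, 2, 3 and 4, and 78, 74, 96, 262 and 75 without wild-type arrays 1 to 5. For the 103 cytoskeleton list genes, 1 became 2 with median centring, 14 with array weights and 6 with the replicate block, and 0 with no filter, the mean of probe sets, every probe set as its own row, no intensity trend, the level block, the low-level arrays left out, the 3′ over 5′ or poly-A covariate, or the highest level alone. It was 0 to 5 when single arrays were left out: 4, 5 and 4 without Apoe-deficient arrays 1, 5 and 6, 4 without wild-type array 4 and 0 without any other.

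Signs turned for 5 of the 10 genes. Nefl had -0.056 with the deposited scaling, -0.046 with median centring, -0.0065 with the replicate block, -0.021 with the 3′ over 5′ covariate and -0.049 within the highest level, and -0.013 to 0.095 when single arrays were left out. Stmn3 had -0.24 with the deposited scaling, -0.23 with median centring, -0.13 with the level block, -0.16 without the low-level arrays, -0.19 within the highest level and -0.049 with the poly-A covariate, and 0.0018 to 0.16 when single arrays were left out. Stmn2 had 0.0028 with the mean of probe sets and 0.0043 with array weights, and -0.048 to 0.014 when single arrays were left out. Gap43 had -0.018 without the low-level arrays and -0.11 within the highest level, and Map2 had -0.049 within the highest level. The filter at the 60th percentile gave no value for Map2. The replicate numbers are not stated to pair arrays: same-numbered arrays had correlations of -0.18 to 0.15 in their deviations from the group means, and 0 of 5 correlated best with its own number. With the replicate block, which drops Apoe-deficient array 6 as unpaired, Nefh had -0.49 (limma adjusted p = 0.046), and with that array left out and no block it had the same difference (adjusted p = 0.0411), so the call is not put down to the block.

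Depth has no count here; signal over background limits Map2, whose weaker probe set stayed below the filter level in all 11 arrays. No detection call was used. The median of all genes stayed between -0.05 and -0.02 under all settings.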

Other observations

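Some genes of the cytoskeleton lists ran against the sign of most others. Besides Pfn1, the list genes with the highest differences were Tubb6 (0.66, SE 0.31, unadjusted p = 0.0528), Cap1 (0.60, SE 0.23, unadjusted p = 0.0214), Marcks (0.44, SE 0.16, unadjusted p = 0.0142), Kif3a (0.34, SE 0.13, unadjusted p = 0.0234) and Vim (0.32, SE 0.12, unadjusted p = 0.0154). None passed the limma threshold after adjustment, and all genes of this paragraph but Pfn1 were picked after their values were seen. Vim encodes vimentin, the intermediate filament of many non-neuronal cells, and Tubb6 a beta-tubulin found widely outside neurons. Of the 10 tested macrophage markers 7 were higher in Apoe-deficient ganglia, and their part in these values was not tested. At the other end, the lowest list gene was the muscle intermediate filament desmin, Des (-0.66, SE 0.37, unadjusted p = 0.0943), and the kinesin Kif1a had -0.47 (SE 0.17, unadjusted p = 0.0152), the kinesin Kif3c -0.45 (SE 0.18, unadjusted p = 0.0222), the adhesion molecule L1cam -0.48 (SE 0.13, unadjusted p = 0.00176), the spectrin Sptbn4 -0.44 (SE 0.19, unadjusted p = 0.0376) and the collapsin response mediator Crmp1 -0.42 (SE 0.14, unadjusted p = 0.0109), and none of these passed the threshold after adjustment.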
